A study of Mus musculus with 10 samples.

Results

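The genes described here are 10 transcription factors that establish pluripotency or separate the first lineages of the mouse embryo, namely Pou5f1, Sox2, Nanog, Sall4, Esrrb, Prdm14, Tfap2c, Tead4, Cdx2 and Gata4. They were chosen by symbol, with no threshold on their values, and were looked up among the 21437 gene rows of a table of FPKM, that is, sequenced fragments scaled to exon length and to the number of mapped fragments. Of these 10 genes, 8 had a row, and Esrrb and Prdm14 were not analysed here. A filter on low values, at least 1 FPKM in at least 2 libraries, left 8726 genes for testing, among them 6 of the 10: Pou5f1, Nanog, Sall4, Tfap2c, Tead4 and Gata4. Sox2 and Cdx2 were below it and are given as values.

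RNA-seq was performed on MII oocytes, which are mature eggs arrested in the second meiotic division, on middle 2-cell embryos and on early 4-cell embryos, collected 16, 40 and 55 h after the ovulatory hormone hCG. Each of the 5 groups held 2 libraries: control MII oocytes, control 2-cell, Ago2 knockdown (kd) 2-cell, control 4-cell and Ago2 kd 4-cell embryos. Ago2 encodes the Argonaute protein that cleaves RNA paired with small guide RNAs, and knockdown was by injecting zygotes with Ago2 siRNAs together with an antibody to AGO2. Females were superovulated at an age of 7 weeks for oocytes and embryos alike. Control libraries are labelled wild type, and the Methods name a scrambled siRNA as the negative control of the injections without saying whether the sequenced control embryos received it. The labels give strain ICR to every library, whereas the growth protocol gives F1 by F1 matings for the embryos, so strain and stage cannot be told apart between oocytes and embryos. How many embryos made up a library and whether the replicates came from separate collections is not stated, so p-values measure the spread between these libraries, which may be technical. Ago2 itself was not analysed here, so the knockdown was not checked on its target.

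In the mouse, POU5F1 (OCT4) and SOX2 bind DNA side by side at octamer and SOX motifs and, with NANOG, ESRRB, SALL4 and PRDM14, hold cells of the inner cell mass and embryonic stem cells in a pluripotent state. TEAD4, the DNA-binding partner of the Hippo effector YAP1, and TFAP2C lie upstream of CDX2 in the trophectoderm, the outer layer that forms the placenta, and GATA4 belongs to the primitive endoderm. Several of these mRNAs are stored in the egg or first transcribed in the cleavage stages, before any lineage is visible. In bulk libraries of this kind, fewer cells that use a gene and less RNA per cell cannot be told apart.

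Because POU5F1 and SOX2 read an octamer and a SOX motif, the 250 bases before the annotated start of transcription are shown for 4 of the genes, with the octamer core ATGCAAA and the SOX core ACAAT, on either strand, in capitals. Upstream sequence was given for 5 of the 10 genes (RefSeq, GRCm38.p6), the fifth being Esrrb. Each is written 5′ to 3′ on the strand of its gene, and the last base is the one before the start site. Nanog lies at chr6:122707239-122707488 (plus strand), Cdx2 at chr5:147307250-147307499 (minus strand), Sox2 at chr3:34649745-34649994 (plus strand) and Pou5f1 at chr17:35505782-35506031 (plus strand).
Nanog: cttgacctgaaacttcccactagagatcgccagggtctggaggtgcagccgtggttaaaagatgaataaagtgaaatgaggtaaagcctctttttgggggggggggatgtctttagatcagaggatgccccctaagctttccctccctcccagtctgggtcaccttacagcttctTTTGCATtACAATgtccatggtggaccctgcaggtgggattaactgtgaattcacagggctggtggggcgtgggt
Cdx2: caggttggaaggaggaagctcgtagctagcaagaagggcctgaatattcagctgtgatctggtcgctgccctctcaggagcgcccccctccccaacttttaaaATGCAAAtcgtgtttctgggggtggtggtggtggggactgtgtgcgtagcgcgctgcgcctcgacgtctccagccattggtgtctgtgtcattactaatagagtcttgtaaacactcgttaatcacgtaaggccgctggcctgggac
Sox2: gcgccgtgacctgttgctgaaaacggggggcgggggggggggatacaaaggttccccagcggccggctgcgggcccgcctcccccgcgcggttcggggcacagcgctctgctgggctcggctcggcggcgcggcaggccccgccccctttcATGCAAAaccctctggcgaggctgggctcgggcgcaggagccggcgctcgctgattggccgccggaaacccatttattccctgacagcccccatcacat
Pou5f1: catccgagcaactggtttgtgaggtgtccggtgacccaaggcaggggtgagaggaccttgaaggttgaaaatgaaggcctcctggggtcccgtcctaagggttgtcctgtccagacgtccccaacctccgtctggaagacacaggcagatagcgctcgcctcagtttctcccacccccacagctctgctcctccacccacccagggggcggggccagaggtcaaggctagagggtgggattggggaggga

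The octamer core was present in 3 of the 5 genes, Nanog, Cdx2 and Sox2, and in 4.13% of 32817 promoters of the same length. In Nanog it was on the opposite strand at positions -75 to -69, with -1 the base before the start site, and a SOX core followed at -67 to -63, leaving 1 base between them. A pair with this spacing and orientation occurred in 8 of the 32817 promoters (0.0244%), both annotated Nanog start sites included. The octamer core was at -147 to -141 in Cdx2 and at -99 to -93 in Sox2. The first Pou5f1 start site had neither motif in this window but a GC box, GGGCGG, at -45 to -40, a motif present in 32.7% of promoters. The SOX core alone is common, in 27.7% of promoters, and was also present in Esrrb. The TEAD core CATTCC, in 12.6% of promoters, and the TATA box TATAAA, in 12.4%, were in none of the first-site windows of the 5 genes. These matches describe letters only, and binding was not measured.

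**Figure D1:**
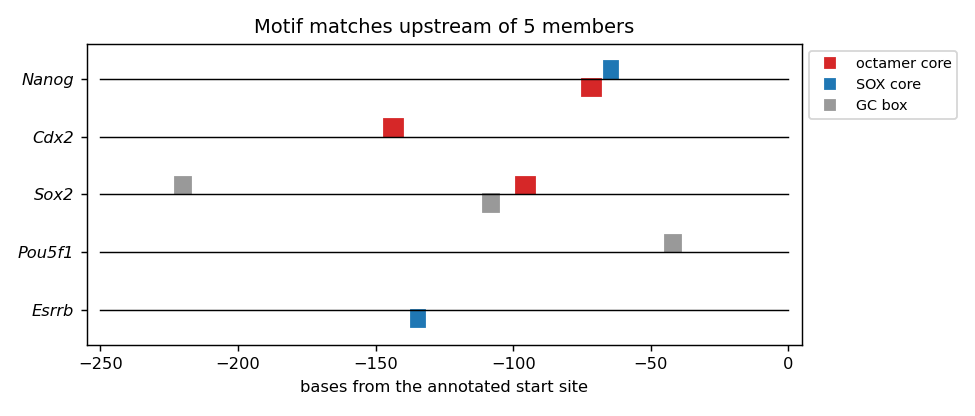
Positions of the octamer core (red), SOX core (blue) and GC box (grey) in the 250 bases before the first annotated start site of 5 genes, in bases from that site, with matches on the gene's own strand drawn above the line and those on the opposite strand below it. In Nanog the octamer core at -75 to -69 and the SOX core at -67 to -63 stand next to each other, and Pou5f1 holds a GC box alone.

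The libraries set how closely these genes could be followed. The FPKM of a library summed to between 178681 and 458874. In genes with a single transcript the values moved in steps of 1 fragment, and the step, in FPKM times kilobases, lay between 0.0534 and 0.0747 in all libraries, a 1.4-fold range. The step was sought only between 0.045 and 0.09, so a wider range of depths could not have shown. Many genes were listed at exactly 0, and Gapdh, which cells use throughout, was at most 0.167 FPKM in every library, so a value of 0 is given only as listed at 0. Values near 0, such as those of Gapdh and the lowest of Sall4, are likewise given only as listed. Whether they reflect the level of the transcript was not tested. Of the genes above 10 FPKM in the other replicate, 14.6% (416 of 2845) were below 0.1 FPKM in 4-cell Ago2 kd replicate 1, against 1.61% to 5.81% in the other libraries. The summed FPKM of 10 oocyte genes, such as Zp3 and Gdf9, was 7043.9 and 8610.5 in the oocyte libraries, 1197.4 to 1734.5 in 2-cell libraries and 6.69 to 41.9 in 4-cell libraries. Of 12 markers of cumulus and granulosa cells, which surround the egg, 4 had a row, none passed the filter, and their sum was at most 1.78 FPKM in any library.

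Tests compared groups on log2(FPKM + 1) with limma, fitted over the 10 libraries and all 8726 genes, and a gene is said to have risen or fallen when the Benjamini-Hochberg adjusted p was below 0.05. Differences are in log2(FPKM + 1) units, which understate changes of low genes, and are given with their standard error (SE).

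From MII oocyte to the 2-cell stage in controls, Sall4 was the only one of the 6 tested genes to change, and it fell. Across all genes, 14.2% fell and 6.54% rose in this comparison. Sall4 encodes a zinc-finger factor that acts with POU5F1 in embryonic stem cells and is on chromosome 2 at 168748332 to 168767943 (GRCm38, minus strand). It was at 234.7 and 273.2 FPKM in the oocytes (percentiles 98.4 and 98.6 of all rows) and at 0.337 and 0.197 FPKM in the 2-cell controls. The groups were far apart and the difference was -7.65 (SE 0.79, n = 2 and 2, adjusted p = 0.00111 by limma). By the listed values the transcript was thus abundant in the egg and very low in control embryos 40 h after hCG.

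Pou5f1, the central factor of the pluripotent state (chromosome 17, 35506018 to 35510772, plus strand), was already high in the egg. MII oocytes had 44.9 and 60.4 FPKM, and 2-cell controls had 52.3 and 62.4 FPKM. These ranges overlapped, and the difference was 0.13 with a 95% interval from -0.76 to 1.02. Tfap2c, which encodes an AP-2 factor of the trophectoderm and germ line (chromosome 2, 172549593 to 172558622, plus strand), had 28.9 and 23.9 FPKM in oocytes, and 2-cell controls had 20.6 and 31.2 FPKM. The 2 groups overlapped here too, with a difference of -0.05 (95% interval -1.21 to 1.11). Nanog and Tead4 were listed at 0 in all oocyte and 2-cell libraries, kd included.

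From the 2-cell to the 4-cell stage in controls, 5 of the 6 tested genes changed, 4 upward and 1 downward. The corresponding shares of all genes were 21.1% upward and 17.5% downward. Tead4 and Nanog passed the filter only through their 4-cell values, so for them a difference between stages was built into the filter, and their share in this count carries no weight.

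Sall4 came back, from 0.337 and 0.197 FPKM to 105.5 and 110.4 FPKM. The 4-cell libraries agreed to within 0.06 log2 units, and the rise was 6.43 (SE 0.79, adjusted p = 0.00113 by limma). Sall4 was thus listed high in the egg, very low in 2-cell controls and high again in 4-cell controls. Tfap2c rose from 20.6 and 31.2 FPKM to 132.6 and 154.4 FPKM, by 2.45 (SE 0.49, adjusted p = 0.00801). With every library scaled to the same median the adjusted p of this rise was 0.0732.

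Tead4 (chromosome 6, 128224288 to 128300823, minus strand) was listed at 0 in 8 of the 10 libraries and at 16.5 and 40.1 FPKM in the 4-cell controls. No fold is given against a group at 0, and the adjusted p was 0.000267 by limma. Nanog, the homeobox factor of the inner cell mass (chromosome 6, 122707489 to 122714633, plus strand), went from listed at 0 to 6.43 and 5.20 FPKM (adjusted p = 0.0256). That call was lost without the filter on low values (adjusted p = 0.0637) and when any one of the oocyte, 2-cell control or 4-cell control libraries was left out (0.0536 to 0.1). In both genes the groups listed at 0 are pooled into the spread with none of their own, which lowers the SE and the p-values. The same holds for other genes with groups listed at 0. The SE was 0.41 for Tead4 and 0.75 for Nanog, whose 4-cell Ago2 kd libraries differed by 2.59 log2 units.

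Pou5f1 was the 1 gene of the group that fell between the 2-cell and 4-cell controls, from 52.3 and 62.4 FPKM to 23.1 and 18.5 FPKM. The 4-cell libraries lay below the 2-cell libraries, by -1.42 (SE 0.38, adjusted p = 0.0234 by limma), while the median of all genes moved by 0.24. Leaving out 2-cell control replicate 1, 2-cell control replicate 2 or 4-cell control replicate 2 took the adjusted p to between 0.0641 and 0.0981.

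**Figure D2:**
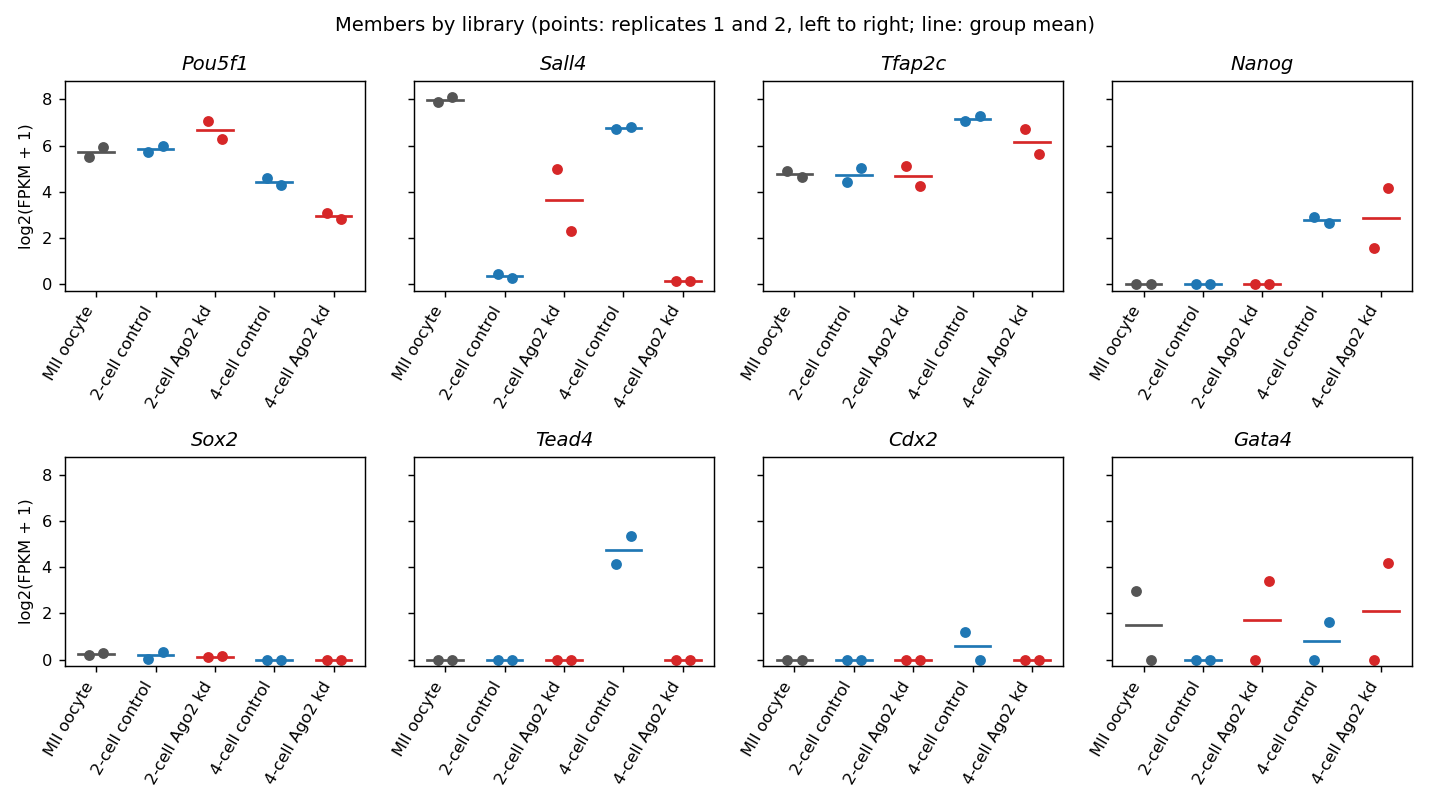
Level of the 8 genes with a row, as log2(FPKM + 1), in each of the 10 libraries (grey, MII oocyte; blue, control embryos; red, Ago2 kd embryos; line, mean of the 2 libraries of a group). Sall4 is high in MII oocytes and 4-cell controls and close to 0 in 2-cell controls and 4-cell Ago2 kd embryos, and Tead4 is above 0 only in the 2 4-cell controls.

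Cdx2, Sox2 and Gata4 were low or uneven. Cdx2, the homeobox gene of the trophectoderm (chromosome 5, 147300805 to 147307270, minus strand), was at 1.27 FPKM in 4-cell control replicate 1, about 42.5 fragments, and listed at 0 in the 9 other libraries, its replicate included. Sox2 (chromosome 3, 34650405 to 34652461, plus strand) has a single annotated transcript, so its values could be read as fragments, all within 0.13 of a whole number. They came to 5 and 7 fragments in the oocytes, 1 and 7 in the 2-cell controls, 3 and 4 in the 2-cell Ago2 kd embryos and none in the 4 libraries of the 4-cell stage. The highest Sox2 level was 0.254 FPKM, and these numbers are too few to compare groups. The gene lies inside the longer noncoding transcript Sox2ot, from which its reads may not be separable.

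Gata4, the zinc-finger gene of the primitive endoderm (chromosome 14, 63198922 to 63271692, minus strand), was above 0 in 1 library of each of 4 groups. The values were 6.84 FPKM in MII oocyte replicate 1, 9.71 in 2-cell Ago2 kd replicate 2, 2.04 in 4-cell control replicate 2 and 17.1 in 4-cell Ago2 kd replicate 2. In each of these pairs the other library was listed at 0, so the difference within a pair was as large as any between groups, and none of its comparisons passed the test.

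At the 2-cell stage, none of the 6 tested genes changed between Ago2 kd and control embryos after adjustment, where 0.55% of all genes did. Sall4 alone had an unadjusted p below 0.05, in the upward direction, as did 2.96% of all genes. It was at 30.7 and 3.85 FPKM in the 2-cell Ago2 kd embryos against 0.337 and 0.197 FPKM in controls. Both kd libraries were above both controls but differed from each other by 2.71 log2 units, and the difference was 3.29 (SE 0.79, unadjusted p = 0.00439, adjusted p = 0.238 by limma). Without 2-cell Ago2 kd replicate 2 it was 4.65 with an adjusted p of 0.0115, and over all alternatives the adjusted p ran from 0.0115 to 0.881.

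Pou5f1 was at 133.6 and 77.1 FPKM in 2-cell Ago2 kd embryos, above both controls at 52.3 and 62.4 FPKM, yet the difference of 0.82 had a 95% interval from -0.07 to 1.71 and an adjusted p of 0.939 by limma. Tfap2c was at 33.7 and 18.1 FPKM, spanning the control values, with a difference of -0.03 (95% interval -1.19 to 1.12). The interval leaves room for a change of about 1 log2 unit either way.

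At the 4-cell stage, 2 of the 6 tested genes, Sall4 and Tead4, fell in Ago2 kd embryos and none rose. Among all genes 2.77% fell and 1.23% rose. At an unadjusted p below 0.05, Pou5f1 joined them (3 of 6, against 8.07% of all genes downward). Tead4 entered the test only through its 4-cell control values, so the filter required it to differ there.

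Sall4 was at 105.5 and 110.4 FPKM in 4-cell controls and at 0.0929 and 0.0878 FPKM in 4-cell Ago2 kd embryos. Read over its longest annotated transcript, the kd values amount to about 6.77 and 6.3 fragments, against about 7927 and 8246 in the controls. The 2 kd libraries were close to each other and far below both controls, with a difference of -6.64 (SE 0.79, 95% interval -8.52 to -4.77, adjusted p = 0.00515 by limma). Tead4 was at 16.5 and 40.1 FPKM in controls and listed at 0 in both kd libraries (adjusted p = 0.00112). In kd replicate 2, whose share of genes missing relative to its replicate was 2.04%, both genes were as low as in replicate 1. That share counts only genes above 10 FPKM in replicate 1, so it cannot show genes missing from both kd libraries. Whether Sall4 and Tead4 were missed in both was not tested. When the fit held only the 4 libraries of the 4-cell stage, no gene of the 8726 passed, and the adjusted p was 0.157 for Sall4 (unadjusted p = 0.000251) and 0.235 for Tead4 (unadjusted p = 0.00774). Over the other alternatives both stayed called. The study also named Tead4 from these libraries, so its direction is not independent evidence.

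Pou5f1 was at 23.1 and 18.5 FPKM in 4-cell controls and at 7.39 and 6.01 FPKM in 4-cell Ago2 kd embryos. The groups did not overlap, each pair agreeing to within 0.3 log2 units, and the difference was -1.50 (SE 0.38, 95% interval -2.39 to -0.61). Its unadjusted p of 0.00545 became 0.093 after adjustment over all genes with limma, and it did not pass under any alternative tried (0.0785 to 0.345). The study named Pou5f1 as an example from these libraries, so its direction is not independent evidence. Tfap2c was at 105.3 and 48.2 FPKM against 132.6 and 154.4 FPKM in controls, both below, and the difference of -0.99 (SE 0.49, adjusted p = 0.408) was smaller than the gap of 1.11 between its own kd libraries.

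Nanog was at 1.92 and 16.6 FPKM in the 4-cell Ago2 kd embryos, on either side of the controls at 6.43 and 5.20 FPKM. The difference was 0.08 with a 95% interval from -1.69 to 1.85, which excludes neither a large rise nor a large fall. With kd replicate 1 alone, that is, without 4-cell Ago2 kd replicate 2, it was -1.22 with an adjusted p of 0.0409 by limma, and with kd replicate 2 alone it was 1.37, so 1 library decides its direction.

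**Figure D3:**
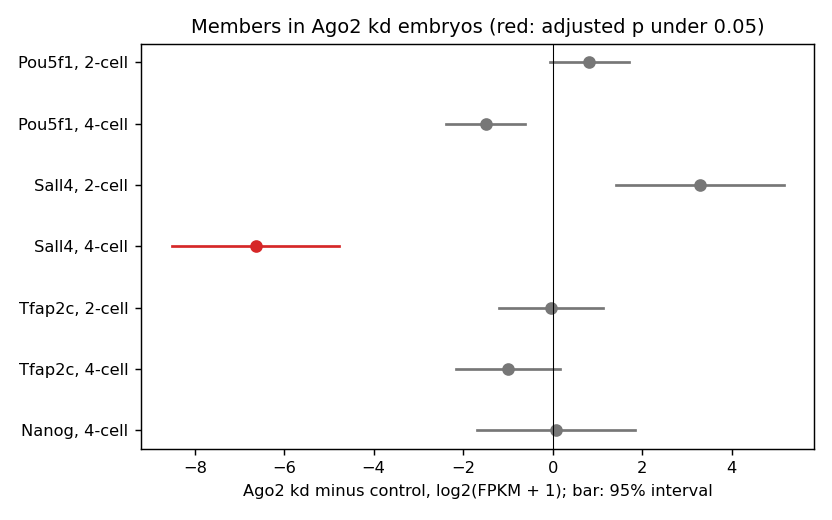
Difference between Ago2 kd and control embryos in log2(FPKM + 1), with 95% intervals from limma (red, adjusted p below 0.05, and grey, not). Pou5f1, Sall4 and Tfap2c are drawn at both stages and Nanog at the 4-cell stage. Gata4, above 0 in 1 library of each 4-cell group, is not drawn. Sall4 lies at 3.29 in 2-cell and at -6.64 in 4-cell embryos, the latter alone in red, and Pou5f1 lies at 0.82 and -1.50.

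The effect of Ago2 kd was also compared between the stages, by testing the 4-cell difference minus the 2-cell difference. It was -9.93 for Sall4 (SE 1.12, adjusted p = 0.00668 by limma), and Tead4 passed as well (adjusted p = 0.00896), where 1.64% of all genes passed in this direction. Tead4 entered the test only through its 4-cell control values. A difference was thus built into the filter, and its place in these counts carries no weight. At an unadjusted p below 0.05 the share of all genes was 7.11%, and Pou5f1 was the third of the 6 genes below it, with -2.32 (SE 0.53, unadjusted p = 0.00344, adjusted p = 0.0936). For Tfap2c it was -0.96 (SE 0.69, adjusted p = 0.63). Sall4 and Pou5f1 therefore had kd libraries above both controls at the 2-cell stage and below both at the 4-cell stage.

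Followed within the Ago2 kd embryos, 3 of the 6 genes changed between the 2-cell and 4-cell stages, 1 upward (18.8% of all genes) and 2 downward (16.5%). The upward gene, Nanog, passed the filter only through its 4-cell values. A difference between stages was thus built into the filter, and its place in this count carries no weight. Sall4, which rose in controls, fell here from 30.7 and 3.85 FPKM to 0.0929 and 0.0878 FPKM, by -3.51 (SE 0.79, adjusted p = 0.0136 by limma). Pou5f1 fell by -3.74 (SE 0.38, adjusted p = 0.000645), from 133.6 and 77.1 FPKM to 7.39 and 6.01 FPKM. Nanog rose from listed at 0 (adjusted p = 0.0244), a call lost in 6 of 18 alternatives: without the filter (0.0587), with only these 4 libraries fitted (0.178), and without either oocyte library or either 2-cell Ago2 kd library (0.0519 to 0.0917). Tfap2c went from 33.7 and 18.1 FPKM to 105.3 and 48.2 FPKM (difference 1.49, adjusted p = 0.0528). The Sall4 call was lost when the fit held these 4 libraries alone (adjusted p = 0.137) and, narrowly, without 4-cell Ago2 kd replicate 2 (0.0548). Over all alternatives its adjusted p lay between 0.0012 and 0.137.

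Across the 5 groups the order of the levels differed by gene. Sall4 ran from MII oocyte (mean 253.9 FPKM) through 4-cell control (107.9), 2-cell Ago2 kd (17.3) and 2-cell control (0.267) to 4-cell Ago2 kd (0.0903). Pou5f1 ran from 2-cell Ago2 kd (105.4) through 2-cell control (57.4), MII oocyte (52.7) and 4-cell control (20.8) to 4-cell Ago2 kd (6.7), and the 3 highest groups were not separated by the test where it compared them. Tfap2c was highest in 4-cell control (143.5) and 4-cell Ago2 kd (76.7), whose difference did not pass the test, and between 25.9 and 26.4 in the 3 earlier groups.

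Markers of earlier stages were read in the same embryos. Of 6 tested genes that mark the 2-cell burst of transcription, 1 rose in 4-cell Ago2 kd embryos, where 1.23% of all genes rose. It was Tcstv3, from 0.541 and 0.812 FPKM in controls to 13.7 and 13.5 FPKM in kd embryos (adjusted p = 0.00485 by limma). In 2-cell controls Tcstv3 was at 273.2 and 306.0 FPKM, and 2-cell Ago2 kd embryos had 134.1 and 134.1 FPKM (unadjusted p = 0.0197, adjusted p = 0.586 by limma). At an unadjusted p below 0.05, 2 of the 6 were higher in 4-cell Ago2 kd embryos, Tcstv1 and Tcstv3. At the 2-cell stage 1 of the 6 was lower, Tcstv3, and 1 higher, Usp17lc. The summed level of the 8 such genes with a row was 559.7 and 288.4 FPKM in 4-cell controls, and the kd embryos of that stage had 546.9 and 988.8 FPKM. These sums overlapped and were mostly Obox6 (551.9 and 285.1 FPKM in controls, 521.7 and 959.4 FPKM in kd), which was higher in 4-cell than in 2-cell controls. Of 8 tested oocyte genes none was called by limma (2 of 8 at an unadjusted p below 0.05, Oosp1 and Mos, both higher, and 1 of 8 called under each of the 3 scalings), and the summed level of all 10 was 11.3 and 6.69 FPKM in controls and 41.9 and 24.6 FPKM in kd embryos. The part of these markers in the differences of Sall4, Tead4 and Pou5f1 was not tested.

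Related genes were read from lists of the same pathways. Of 26 other pluripotency genes, 17 were tested, and 6 rose and 1 fell between the 2-cell and 4-cell controls (median 1.14, against 0.24 for all genes, of which 21.1% rose and 17.5% fell). Without either 4-cell control library 4 rose and 0 fell. Klf2, a Krüppel-like factor of the naive pluripotent state, went from listed at 0 to 86.6 and 63.8 FPKM (adjusted p = 5.2e-05), and Klf5, another of that family, from 2.44 and 2.46 to 56.0 and 88.6 FPKM (adjusted p = 0.00255). Fgf4, a target of POU5F1 and SOX2 that signals to the primitive endoderm, went from listed at 0 to 28.9 and 7.15 FPKM (adjusted p = 0.00178). At the 4-cell stage, where 2.77% of all genes fell and 1.23% rose in Ago2 kd embryos, 2 of the 17 were lower. They were Klf2 (adjusted p = 0.00022 by limma) and Fgf4 (adjusted p = 0.0102), both listed at 0 in both kd libraries. None was higher, also at an unadjusted p below 0.05 (0 of 17 by limma), and the median was 0.30 against 0 for all genes. Klf5 was at 55.3 and 17.4 FPKM in the kd embryos. Like Tead4, Klf2 and Fgf4 entered the test only through the 4-cell controls, and their groups listed at 0 lower the SE in the same way.

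Between MII oocytes and 2-cell controls, 4 of these 17 genes rose and none fell (0 also at an unadjusted p below 0.05), where 6.54% of all genes rose and 14.2% fell. The number that rose was 0 without MII oocyte replicate 1 or without 2-cell control replicate 1, 1 without MII oocyte replicate 2, without either 4-cell control or without the filter, and 2 without 2-cell control replicate 2 or with quantile normalization. It was led by Utf1, a chromatin factor of embryonic stem cells, which went from listed at 0 to 5.64 and 3.97 FPKM (adjusted p = 0.0131 by limma). Mycn, a Myc-family factor, went from listed at 0 to 7.41 and 3.46 FPKM (adjusted p = 0.0332), and Myc from listed at 0 to 12.2 and 3.27 FPKM (adjusted p = 0.0434). Mycn passed the filter only with its 2-cell values, so the filter favoured its rise.

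Of 25 Hippo and trophectoderm genes, 12 were tested, and 7 rose and 1 fell between the 2-cell and 4-cell controls (median 1.71), where 21.1% of all genes rose and 17.5% fell. Without 2-cell control replicate 1 the number that rose was 4, and 4 fell when only the groups compared were fitted. Lats2, the kinase that keeps YAP1 out of the nucleus, went from listed at 0 to 14.4 and 10.8 FPKM (adjusted p = 0.000405), and Amotl2, an angiomotin that binds YAP1, from 0.0926 and 0 to 46.7 and 13.6 FPKM (adjusted p = 0.00134). Wwtr1, which encodes the YAP1 relative TAZ, rose from 3.91 and 4.55 to 48.6 and 28.1 FPKM (adjusted p = 0.0066). At the 4-cell stage Lats2 and Amotl2 fell in Ago2 kd embryos, to 0.941 and 0 FPKM and to listed at 0 in both (adjusted p = 0.00343 and 0.00694), none of the 12 rose (0 also at an unadjusted p below 0.05), and the median was -0.26. Across all genes 2.77% fell and 1.23% rose in this comparison. Lats2 and Amotl2 entered the test only through the 4-cell controls, so the filter favoured both differences. Tead1, also among the 7 that rose between the control stages, passed the filter only with its 4-cell values. Wwtr1 was at 47.7 and 19.3 FPKM in kd embryos. Yap1, the partner of TEAD4, was at most 0.317 FPKM in any library and was not tested. In the step from oocyte to 2-cell control, Stk3, a kinase at the head of the Hippo pathway, fell from 31.6 and 29.2 to 0.522 and 0.64 FPKM (adjusted p = 0.000839), Wwtr1 rose from 0.0921 and 0 FPKM (adjusted p = 0.0248), and Vgll4, which competes with YAP1 for TEAD factors, fell from 16.4 and 19.2 to 2.52 and 2.34 FPKM (adjusted p = 0.0354). Stk3 passed the filter only with its oocyte values. Across all genes 6.54% rose and 14.2% fell in this step. In that step 2 of the 12 rose and 2 fell, and without either 2-cell control or without MII oocyte replicate 1 these numbers were 1 and 1.

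Of 11 primitive endoderm genes 4 were tested, and 2 rose and 1 fell between the 2-cell and 4-cell controls. Among all genes 21.1% rose and 17.5% fell in this step. From oocyte to 2-cell control 0 of the 4 rose and 1 fell, where 6.54% of all genes rose and 14.2% fell. Fgfr2, a receptor for FGF4, fell from 18.7 and 27.6 FPKM in oocytes to 1.26 and 2.01 FPKM in 2-cell controls (adjusted p = 0.0042 by limma) and rose to 14.6 and 9.62 FPKM in 4-cell controls (adjusted p = 0.0086). Grb2, the adaptor below that receptor, rose from 1.63 and 5.41 to 162.8 and 71.2 FPKM between these control stages (adjusted p = 0.00629). No gene of this list was called in Ago2 kd embryos at either stage by limma, and 0 of 4 were below an unadjusted p of 0.05. Of all genes 0.55% were called at the 2-cell stage, and 2.77% fell and 1.23% rose at the 4-cell stage.

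Of 33 paralogs, genes of the same families as the 10, 10 were tested, and 4 rose and 1 fell between the 2-cell and 4-cell controls, where 21.1% of all genes rose and 17.5% fell. Sox13, Sox21 and Tead1, which was among those that rose, passed the filter only with their 4-cell values, so the filter favoured their rise. Sox13 rose from 0 and 0.33 to 9.05 and 13.7 FPKM (adjusted p = 0.00123 by limma), Sox15 from 0 and 2.72 to 100.5 and 115.4 FPKM (adjusted p = 0.00385) and Sox21 from 0.0203 and 0 to 7.91 and 2.60 FPKM (adjusted p = 0.0091). While Sox2 was listed at 0, Sox15 was thus at over 100 FPKM in both 4-cell controls, and it was at 243.4 and 196.0 FPKM in the 4-cell Ago2 kd embryos. Sox13 fell in the 4-cell Ago2 kd embryos, where 2.77% of all genes fell, to 1.29 and 0.0223 FPKM (adjusted p = 0.0118 by limma). It entered the test only through the 4-cell controls, and no paralog was called with a pseudocount of 0.1, under any of the 3 scalings or with only the 4-cell libraries fitted. Tead1, a paralog of Tead4, was at 3.67 and 6.27 FPKM in 4-cell controls and 1.22 and 3.59 FPKM in kd embryos, where Tead4 was listed at 0. From oocyte to 2-cell control, Pou2f1, a broadly used relative of Pou5f1, fell from 13.7 and 41.1 to 0.114 and 0.175 FPKM (adjusted p = 0.00256), Tfap2e fell from 11.8 and 15.5 FPKM to listed at 0 (adjusted p = 0.00896), and Gata2 rose from 0.0392 and 0 to 1.23 and 1.25 FPKM (adjusted p = 0.00704). Pou2f1 passed the filter only with its oocyte values and Gata2 only with its 2-cell values, so the filter favoured both differences.

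At the 2-cell stage, no gene of these 4 lists was called by limma between Ago2 kd and control embryos, where 0.55% of all genes were. At an unadjusted p below 0.05 there was 1 other pluripotency gene, Stat3, in the lower direction and 1 paralog, Tfap2e, in the higher direction, and 0 genes of the other 2 lists. Without 2-cell Ago2 kd replicate 1, 1 paralog was called in the higher direction.

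**Figure D4:**
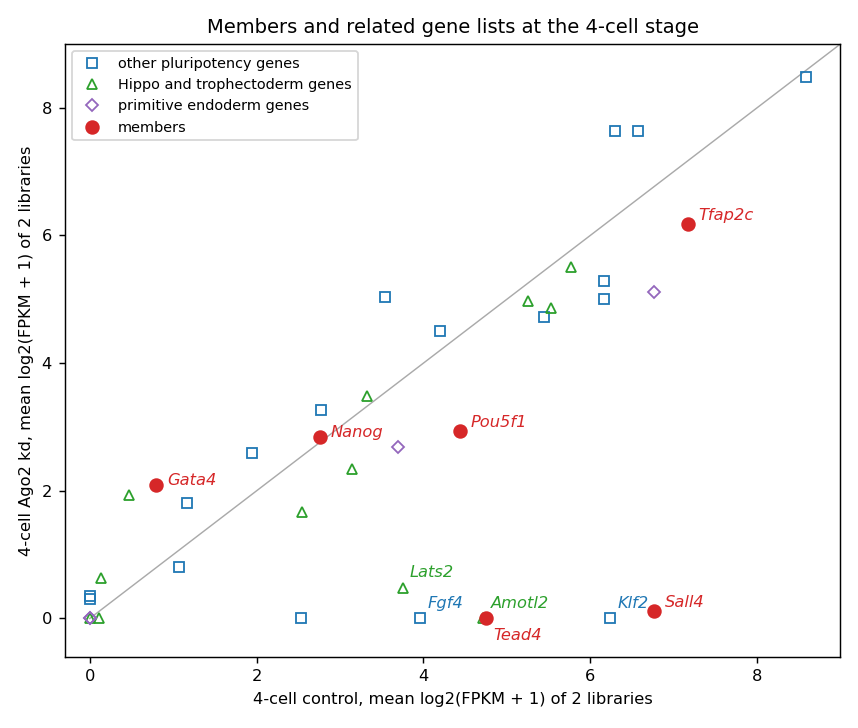
Mean log2(FPKM + 1) of 2 libraries in 4-cell control (horizontal) and 4-cell Ago2 kd embryos (vertical) for the 6 tested genes of the group (red, named) and 3 related lists, with the diagonal marking equal levels and the names of list genes with an adjusted p below 0.05. Sall4, Tead4, Klf2, Fgf4, Amotl2 and Lats2 lie close to the horizontal axis, and Nanog lies on the diagonal.

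The genes whose profiles over the 10 libraries were most like those of the 3 genes with a mean of at least 10 FPKM are given as a description, from Pearson's r on log2(FPKM + 1) against 8725 other genes. For Sall4 they were Usp49 (r = 0.979), Ube2g2 (0.961) and Akirin2 (0.959). Usp49 shared the fall and return of Sall4, at 7.76 and 8.42 FPKM in oocytes, 0.778 and 0 in 2-cell controls, 6.34 and 6.21 in 4-cell controls and 0.821 and 0.409 in 4-cell Ago2 kd embryos. For Pou5f1 they were Mis12 (r = 0.96), Dgkd (0.944) and Prune (0.944). For Tfap2c they were Pqlc1 (r = 0.98), Gm24067 (0.978) and Zfp428 (0.973). These libraries share stage and treatment, so a high r says only that the group levels follow the same order.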

How the data were processed

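The 10 RNA-seq libraries were assigned to 5 groups of 2 from their labels, which state stage, control or Ago2 kd, and replicate. Collection times were taken from the study's methods. The authors aligned reads to mm10 (GRCm38) with HISAT2 2.1.0 and computed FPKM with StringTie, and the submitters' processing notes also name CASAVA 1.4. The deposited values are FPKM, 1 per gene name and library for 21437 rows. How transcripts were reduced to 1 row per name is not given in the sources used here. The authors ran their tests on read counts, which were not used here, so limma replaced a count test. No column was left unused (0).

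Values were analysed as log2(FPKM + 1), pseudocount 1, in R 4.3.3 with limma 3.58.1, with 1 mean per group, 5 residual degrees of freedom and variances moderated with a trend on the mean, over 8726 genes (minimum 1 FPKM in 2 or more libraries). Tests were two-sided with Benjamini-Hochberg adjustment over these genes. An exact permutation of 2 against 2 libraries cannot go below p = 0.333 and was not used. The fit was tested on simulated data. The step of 1 fragment was the most frequent value between 0.045 and 0.09, in FPKM times kilobases, among genes with 1 transcript.

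The genes and lists were chosen with earlier results of these data known. The chosen transcription factors that had a row are given in every library, Sox2 as fragments. Other named genes are given in some of the libraries or without FPKM values. Of the other lists, Yap1 and at most 3 called genes per list and comparison, those with the lowest p, are named for the control steps and the kd comparisons, and 3 most alike genes are given for each gene with a mean of at least 10 FPKM; Sox15, Tead1, Klf5 and Wwtr1 in kd embryos were named after their values were seen. A further gene that this rule names is not reported here. Positions are from GENCODE M21 on GRCm38, in which 20460 of the names matched. Upstream sequences are from RefSeq. Alternatives were a pseudocount of 0.1, no filter, 3 scalings, a replicate block, only the groups compared, no trend, and each library left out. Figures were drawn with matplotlib 3.10.9.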

Additional observations from a re-analysis of the deposited data

Results flagged for a closer look

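The effect of Ago2 kd differed between the 4-cell and the 2-cell stage for 3 of the 6 tested genes at an unadjusted p below 0.05 in limma's test of the difference between both effects, all 3 in the lower direction, in which 7.11% of all genes did so. For Sall4 the difference of effects was -9.93 log2 units (adjusted p = 0.00668), from kd libraries at 30.7 and 3.85 FPKM above the 2-cell controls to kd libraries at 0.0929 and 0.0878 FPKM below the 4-cell controls. For Tead4 it was -4.75 (adjusted p = 0.00896), a value that depends on the pseudocount because 8 of the 10 libraries are listed at 0. Tead4 entered the test only through its 4-cell control values, so a difference was built into the filter and its place among the 3 carries no weight. For Pou5f1 it was -2.32 (unadjusted p = 0.00344), which did not pass after adjustment (adjusted p = 0.0936).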

How the results depend on the processing

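Each of 36 values, 6 genes in 6 comparisons, was recomputed under 18 alternatives. Of the 648 outcomes, 601 kept direction and side of the threshold, 21 lost the call, 2 gained it and 24 changed direction. None of the 13 values called in the main analysis changed direction.

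When only the groups compared were fitted, the number of genes called fell from 3 to 1 for the kd step from 2-cell to 4-cell and from 2 to 0 for Ago2 kd against control at the 4-cell stage, where fewer libraries inform the spread. Leaving out 1 library gave 3 to 5 called genes for the control step from 2-cell to 4-cell, 0 to 1 for Ago2 kd against control at the 2-cell stage and 2 to 3 at the 4-cell stage, the third being Nanog without 4-cell Ago2 kd replicate 2.

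Small differences that were not called in the main analysis changed direction with scaling. From oocyte to 2-cell control, Tfap2c moved from -0.05 to 1.12 with equal totals, 0.34 with equal medians and 0.81 with quantile normalization, while the median of all genes moved from -0.06 to 0.38 with equal totals. Its kd difference at the 2-cell stage became 0.03 with equal totals and 0.08 with quantile normalization. For Nanog the kd difference at the 4-cell stage, and likewise the difference between the stages, became -0.02 with a pseudocount of 0.1 and -0.11 with equal totals. Leaving out 1 library changed direction from oocyte to 2-cell control for Pou5f1 (-0.08 to 0.34) and Tfap2c (-0.34 to 0.24), for the kd difference of Tfap2c at the 2-cell stage (-0.46 to 0.40), for Nanog at the 4-cell stage and between the stages (-1.22 to 1.37), and for Gata4 in the kd step (-1.71 to 2.47), in the kd difference at the 4-cell stage (-0.80 to 3.37) and between the stages (-2.51 to 1.66). The cause was not tested.

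Replicate numbers did not pair the libraries: deviations of same-numbered libraries correlated between -0.09 and 0.09. With a replicate block the counts of called genes were 1, 5, 3, 0, 2 and 2, the Sall4 difference at the 4-cell stage was -6.64, and no call among the 6 genes changed. At the depth of these libraries Sox2, with at most 7 fragments, could not be compared.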
